A study of Homo sapiens with 9 samples.

Results

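The first of the hairpins designed against SNHG1 was compared with the control hairpin in Weri-RB1/CRP cells. By their label these derive from Weri-RB1, a line established from a human retinoblastoma, and they are given as resistant to carboplatin. The comparison takes 6 of the 9 libraries of the study, 3 from cells carrying shSNHG1#1 and 3 from cells carrying shNC. It covers the 23561 of 27407 features in the count table that have a gene symbol. All 6 libraries come from the resistant line grown in RPMI 1640 medium with serum, and the labels name neither a parental line nor a carboplatin dose among them. The labels do not say whether each hairpin line was a pool or 1 clone, nor whether the libraries of a group came from separate cultures. The p-values therefore rest on the spread between these samples alone, and that spread may be technical. SNHG1 was not analysed here, so the groups follow the labels.

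A short hairpin RNA is cut by the cell into a small RNA that guides the degradation of transcripts with a matching sequence. SNHG1 is a long noncoding RNA gene whose introns encode small nucleolar RNAs, which guide chemical modification of ribosomal RNA. The 46 gene lists used below follow processes that such cells depend on, from sugar metabolism and the response to low oxygen to DNA replication, interferon signalling and drug transport.

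Total estimated counts ran from 21535413 to 21572390 in the 6 libraries, so depth was nearly equal. Defining transcripts of the retina were at or near 0: 23 of 27 photoreceptor and retinal progenitor markers in the table stayed below 1 FPKM (fragments scaled to transcript length and library size) in all 6 libraries. CRX, the transcription factor of photoreceptors, reached at most 0.03 FPKM, and RCVRN, which encodes recoverin, at most 0.08 FPKM. GNAT2, a cone transducin subunit, was the exception among those inspected, at 19.6, 18.4 and 17.9 FPKM with shNC and 16.3, 16.3 and 16.9 FPKM with shSNHG1#1. Most of these levels are at odds with the label of a retinoblastoma line, and the identity of the cells was not tested. The results below therefore describe the cells as labelled. CRX, RCVRN and GNAT2 were chosen after their values were seen.

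Replicate 1 of shSNHG1#1 stood apart from the other libraries. A gene was marked when it had at least 10 counts there and its scaled count (CPM), plus 0.1, were at least 4 times those in each of the other 8 libraries. This marked 104 genes with a symbol, against 2 to 4 when the same rule was turned on each of the other 5 libraries. The marked genes took 0.0939% of the counts of replicate 1 (95% Wilson interval 0.0926 to 0.0952, for counting error only) and 0.00555% to 0.00799% in the other 5 libraries. They were selected for being high in replicate 1, so a larger share there follows from the rule.

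Several of the marked genes with the most counts encode proteins of the lung surface. SFTPC, a surfactant protein of alveolar type II cells, stood at 5.53, 5.56 and 7.35 FPKM with shNC and at 139, 4.89 and 4.25 FPKM in shSNHG1#1 replicates 1, 2 and 3. SFTPA1, another surfactant protein, stood at 1.37, 1.17 and 2.63 FPKM with shNC and at 49.5, 1.53 and 1.71 FPKM with shSNHG1#1. In both, replicate 1 alone was high, and the other 2 libraries of its group overlapped or lay close to shNC. SFTPA2, SFTPB, CD74 (the invariant chain of MHC class II), A2M, DCN, TIMP3, SLC34A2 and AGER completed the first 10. Of the whole marker lists, 13 of 25 lung alveolar and airway genes were marked, 10 of 19 macrophage, 5 of 14 fibroblast and smooth muscle, 2 of 12 endothelial, 1 of 15 lymphocyte and 1 of 6 red cell genes. None of the photoreceptor, ciliated, neuroendocrine or intestinal and hepatic lists had a marked member.

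Summed levels of the lung, fibroblast, endothelial and red cell lists were highest in replicate 1. The lung and red cell sums also lay lower in replicates 2 and 3 than with shNC. The lung list summed to 454 FPKM in replicate 1, 131 and 133 FPKM in replicates 2 and 3, and 220 to 227 FPKM with shNC. The SFTPC and SFTPA1 levels given above are a small part of the shNC sums, and the members that carry these sums are not given here. Of the 14 tested lung markers 5 were called higher and 4 lower. Fibroblast and smooth muscle markers summed to 60.8 FPKM in replicate 1, 32.5 and 34.5 FPKM in the others, and 30.3 to 35.1 FPKM with shNC. Endothelial markers gave 34.0, 23.5 and 25.3 FPKM against 22.6 to 24.8. Red cell markers gave 18.3, 1.08 and 0.94 FPKM against 2.02 to 3.06. Lists without a marked member were also highest in replicate 1, apart from the photoreceptor list. Ciliated markers gave 6.61, 5.45 and 4.88 FPKM against 4.25 to 5.03. Neuroendocrine markers gave 602, 576 and 581 FPKM against 568 to 578, and intestinal and hepatic markers 50.3, 44.9 and 46.2 against 42.4 to 44.6. The macrophage sums (173, 112 and 109 FPKM against 311 to 327) lay below shNC in all 3 libraries, and the lymphocyte sums (354, 366 and 308 against 148 to 156) above it, each largely through 1 gene. CD68, a lysosomal glycoprotein, fell 3.25-fold, from 269, 286 and 268 to 90.0, 87.4 and 83.5 FPKM, while CCL5, a chemokine, rose 2.21-fold, from 153, 147 and 145 to 346, 361 and 304 FPKM. MZB1, which marks plasma cells, had 0 counts in all 6 libraries. CD68 and CCL5 were chosen after their values were seen.

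**Figure D1:**
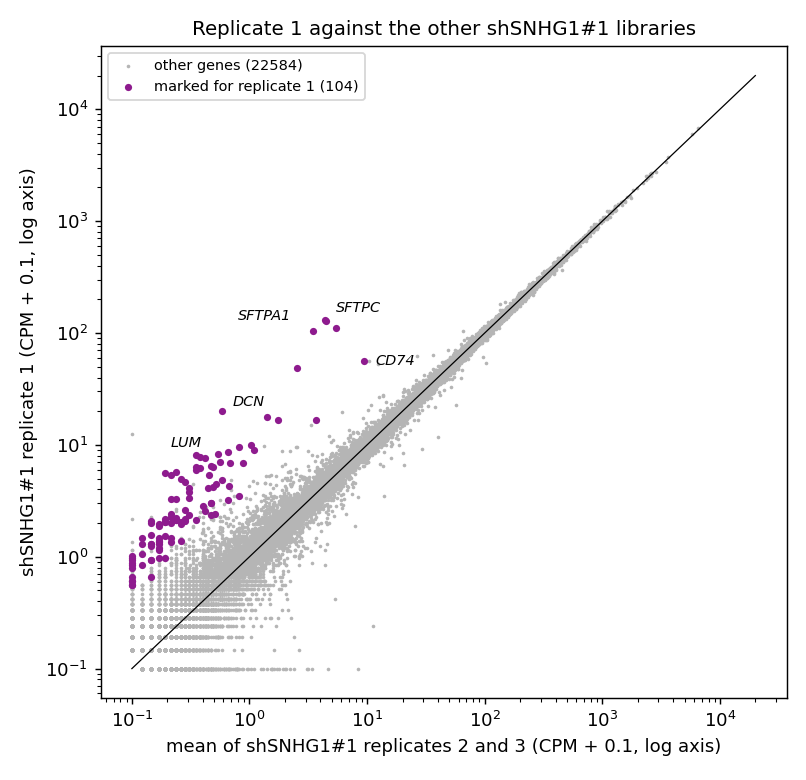
Scaled counts, CPM (plus 0.1, both axes log) of each gene in shSNHG1#1 replicate 1 against the mean of replicates 2 and 3, with the diagonal of equal level. The 104 marked genes (purple) lie above the diagonal, as the marking rule requires, SFTPC and SFTPA1 the farthest among those named. Most other genes (grey) lie along it.

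These transcripts touched few calls. Of the 104 marked genes, 30 had enough counts to be tested, 7 passed the threshold, all higher with shSNHG1#1, and 0 of those 7 passed without replicate 1. Marked genes were selected for being high in that library, so this direction and this loss largely follow from the rule. They were SFTPC, SFTPA1, VWF, ADAM6, COL6A3, LUM and HLA-DPA1. LUM, a proteoglycan of connective tissue, showed the pattern at its plainest: 0.09, 0.07 and 0.22 FPKM with shNC against 3.92, 0.22 and 0.20 FPKM, a log2 fold change of 3.45 that became 0.68 without replicate 1 (adjusted p = 0.533, edgeR). LUM was chosen after its values were seen.

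Leaving out replicate 1 moved the log2 fold change of 30 called genes by more than 1.5-fold, against 8 to 21 when another of the 6 was left out. Of the 30, 23 were not marked. Some of these 23 also encode matrix or vessel proteins. SPARC, a matrix glycoprotein, stood at 1.14, 1.12 and 1.11 FPKM with shNC and 5.83, 1.35 and 1.63 FPKM with shSNHG1#1, but did not pass without replicate 1 (log2 fold change 0.29, adjusted p = 0.209, edgeR). Its adjusted p was 0.0835 to 0.115 without any 1 of the shNC libraries. PECAM1, an adhesion protein of endothelium, stood at 0.38, 0.42 and 0.45 FPKM against 2.44, 0.94 and 0.67 FPKM and kept its call, with a log2 fold change of 1.52 that became 0.90. Replicate 1 was the highest library for both genes, and all 3 shSNHG1#1 libraries still exceeded shNC.

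For others of the 23 the fall was larger without replicate 1. FOS, a subunit of the AP-1 transcription factor, stood at 44.0, 45.6 and 46.2 FPKM with shNC and 23.7, 5.77 and 5.27 FPKM with shSNHG1#1. Its log2 fold change of -1.97 became -3.06 without replicate 1. EGR2, an early growth response factor, went from -1.53 to -2.65, but lost its call without shNC replicate 1 or shSNHG1#1 replicate 2 or 3 (adjusted p up to 0.0709). HSPA6, an inducible heat shock protein, stood at 15.2, 14.3 and 14.4 FPKM against 0.40, 0.09 and 0.18 FPKM, and its fall of 67.0-fold became 108-fold. IGFBP5, a binding protein of insulin-like growth factors, fell 3.52-fold and 7.91-fold without replicate 1. In all 4 genes replicate 1 was the shSNHG1#1 library nearest to shNC. Leaving out replicate 1 lost 997 calls in all, and leaving out another library lost 896 to 1133, so the number was not particular to it. Genes in this and the preceding paragraph were chosen after their values were seen.

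**Figure D2:**
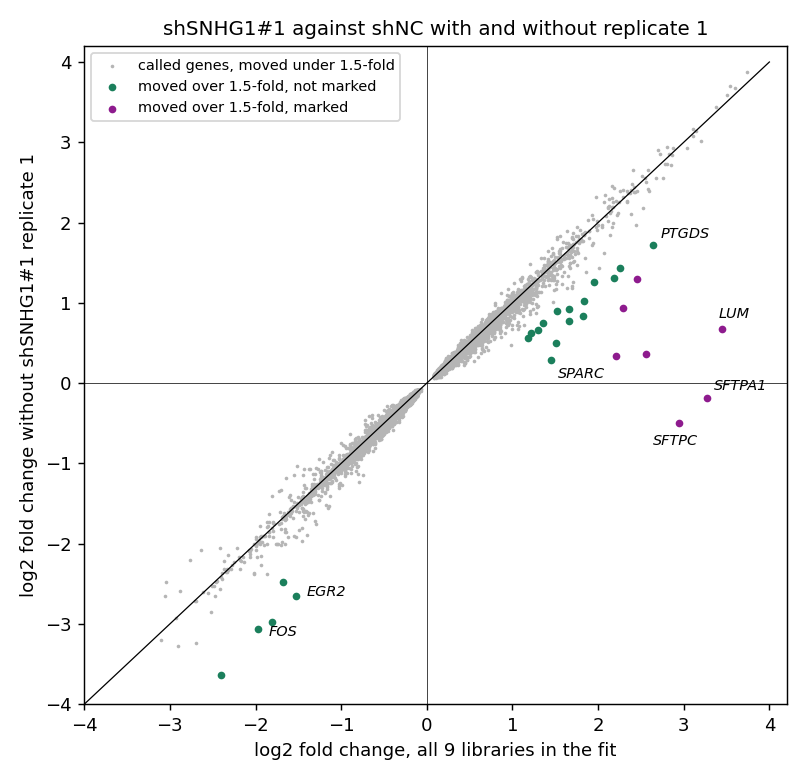
Log2 fold change of called genes with all 9 libraries in the fit (horizontal) and without shSNHG1#1 replicate 1 (vertical), for values within 4 of 0 on both axes. Grey genes moved by less than 1.5-fold and follow the diagonal, marked genes (purple) drop toward 0 or below it, and unmarked genes that moved (green) include FOS and EGR2, which lie below the diagonal on the left.

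Across the transcriptome, 17559 genes with a symbol had enough counts to be tested. Of these, 8765 (49.9%) passed an adjusted p of 0.05 in edgeR's quasi-likelihood test, 4500 higher (25.6%) and 4265 lower (24.3%) with shSNHG1#1. Most calls were small: 5903 of them, or 67.3%, were under 1.5-fold, and 610 were at least 2-fold higher and 447 at least 2-fold lower. The libraries of the groups did not overlap for 58.1% of tested genes, which is the background for each statement on overlap here. The median log2 fold change of all tested genes was 0.025, and the median absolute value was 0.282. Any list below is to be read against those shares, since about as many tested genes passed as did not.

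The split into higher and lower depends on how libraries are scaled. Features without a symbol took 8.2% to 8.8% of counts with shNC and 14.4% to 15.9% with shSNHG1#1. Higher genes made up 51.3% of calls with TMM factors, 58.2% with library totals alone, and 72.5% with totals of the features that have a symbol, a scaling tried after the data were seen. Under the last scaling the median of all genes moved to 0.18 on the log2 scale. Of the 46 lists used below, 25 had a median within that distance of 0. The 9 of these with a negative median all turned positive there and are given with both values, and the other 16, all positive, moved to between 0.16 and 0.33.

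**Figure D3:**
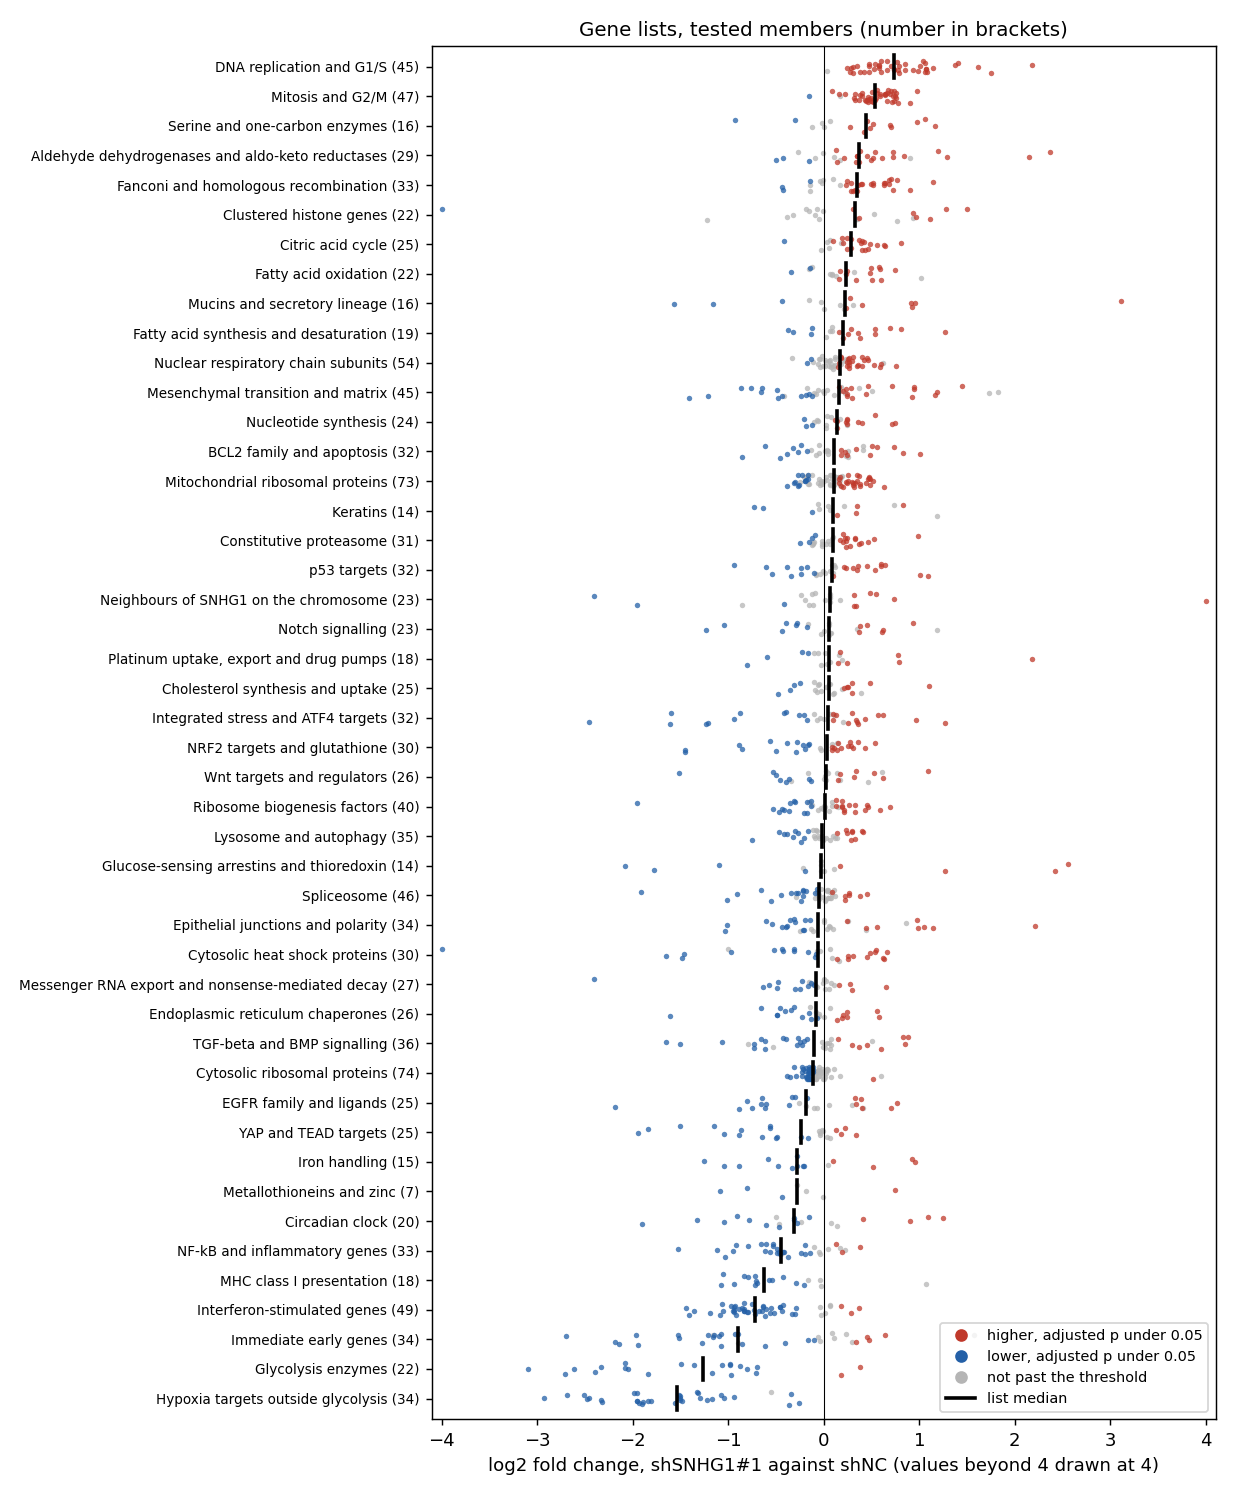
Log2 fold change, shSNHG1#1 against shNC, of each tested member (points) of the 46 gene lists, ordered by their medians (black bars), with the number tested in brackets; red and blue members passed the threshold and grey ones did not. Hypoxia and glycolysis genes lie lowest, with medians of -1.54 and -1.26, and DNA replication genes highest, with a median of 0.73.

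Genes that cells switch on when oxygen is low had the lowest median of the 46 lists. The sensing system works through HIF1A and EPAS1, which prolyl hydroxylases mark for destruction while oxygen is present and which otherwise bind DNA with ARNT. Of 34 hypoxia targets outside glycolysis, 33 fell, 29 of them at least 2-fold, and 0 rose. Their median log2 fold change was -1.54. The remaining member, RAB20, had a log2 fold change of -0.55 and lay lower in all 3 shSNHG1#1 libraries than in any shNC library. It was chosen after its values were seen.

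Several targets are secreted factors. ADM, the vasodilator peptide adrenomedullin, stood at 281, 283 and 287 FPKM with shNC and 37.8, 36.3 and 40.1 FPKM with shSNHG1#1, a log2 fold change of -2.93 (SE 0.03, adjusted p = 8.6e-13). VEGFA, the main growth factor of blood vessels, stood at 87.6, 87.4 and 87.5 FPKM against 33.3, 33.5 and 32.4 FPKM. The groups were far apart in both genes compared with the spread within each. ANGPTL4, a secreted inhibitor of lipoprotein lipase, fell 3.97-fold, and the glycoprotein hormone gene STC2 fell 5.51-fold.

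Enzymes and regulators of the same response moved with them. EGLN3, a prolyl hydroxylase that is itself induced by low oxygen, stood at 142, 143 and 150 FPKM against 24.0, 21.6 and 24.0 FPKM. HILPDA, a protein of lipid droplets, stood at 256, 259 and 252 FPKM against 46.3, 45.5 and 47.1 FPKM. CA9, the carbonic anhydrase of the cell surface, stood at 45.0, 44.1 and 46.7 FPKM against 6.14, 5.81 and 6.70 FPKM. The shSNHG1#1 libraries were low in all 3 genes. The metastasis-related gene NDRG1 fell 4.99-fold, from 964 ± 17.9 to 206 ± 4.13 FPKM (SD, n = 3), the mitophagy receptor gene BNIP3 fell 3.88-fold, and EGLN1, the principal oxygen sensor, fell 1.29-fold. VLDLR, a lipoprotein receptor, fell least, by 0.26 on the log2 scale, and did not pass when scaled by features with a symbol (adjusted p = 0.0638).

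The transcripts of the sensing factors moved in both directions. HIF1A stood at 41.4, 40.0 and 39.5 FPKM with shNC and at 142, 160 and 151 FPKM with shSNHG1#1, a rise of 3.61-fold (log2 fold change 1.85, SE 0.04, adjusted p = 1.8e-10). It was among the 12 genes with the highest log2 fold change by the naming rule, and every shSNHG1#1 library held more than 3 times the level of any shNC library. ARNT fell 1.25-fold, from 16.4, 16.6 and 15.5 to 12.8, 12.9 and 13 FPKM. EPAS1 stood at 81.4, 84.8 and 87.6 against 81.5, 76.3 and 76.9 FPKM and fell by 0.16 on the log2 scale, a call that was lost with totals of features with a symbol (adjusted p = 0.969). Protein levels were not measured. VEGFA, ANGPTL4, CA9, BNIP3, EGLN1, VLDLR, ARNT and EPAS1 were chosen after their values were seen.

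Glycolysis turns glucose into pyruvate and lactate. All 22 genes of this list passed the threshold, 20 lower and 2 higher, with a median log2 fold change of -1.26 and 13 at least 2-fold lower. At the entry of glucose, SLC2A1, the transporter GLUT1, stood at 182, 182 and 191 FPKM with shNC and 38.5, 36.6 and 39.8 FPKM with shSNHG1#1. HK2, the inducible hexokinase, stood at 21.4, 21.7 and 21.8 FPKM against 3.41, 3.60 and 3.68 FPKM. ALDOC, an aldolase isoform and the gene with the lowest log2 fold change by the naming rule, stood at 49.4, 49.6 and 46.9 FPKM against 6.36, 4.93 and 5.64 FPKM, a fall of 8.60-fold (SE 0.067 on the log2 scale, adjusted p = 9.3e-11). All 3 genes were low in every shSNHG1#1 library.

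The bifunctional regulators PFKFB3 and PFKFB4, which set the level of an activator of phosphofructokinase, fell 4.23-fold and 5.24-fold. PGK1, which makes ATP in the middle of the pathway, fell 3.57-fold. GAPDH, often taken as a constant reference, stood at 5141, 5212 and 4991 FPKM against 2962, 2811 and 2868 FPKM and fell 1.83-fold. LDHA, which makes lactate, fell 2.10-fold, and PDK1, which keeps pyruvate out of the citric acid cycle, fell 6.56-fold. The members that rose were the constitutive hexokinase HK1, from 37.5, 37.4 and 37.7 to 43.6, 42.9 and 44.5 FPKM, and the muscle-type phosphofructokinase PFKM, 1.30-fold. Isoforms of the same step therefore moved in opposite directions, HK2 down and HK1 up. GAPDH, LDHA, HK1 and PFKM were chosen after their values were seen.

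**Figure D4:**
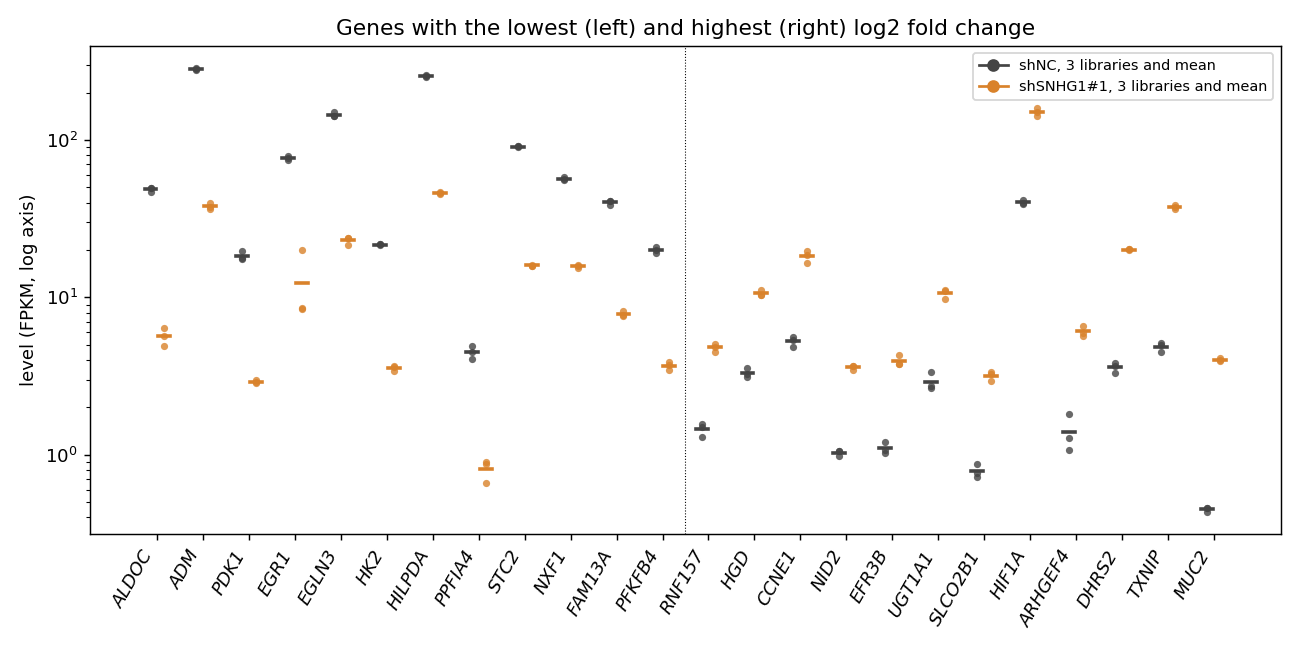
FPKM (log axis) in the 3 shNC (grey) and 3 shSNHG1#1 (orange) libraries, with group means as bars, for the 12 genes with the lowest and the 12 with the highest log2 fold change by the naming rule. The rule took only genes whose groups do not overlap. EGR1 shows the widest spread, from replicate 1 of shSNHG1#1.

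The 5 letters ACGTG form the core to which hypoxia-inducible factors are known to bind. They were searched on both strands in the 250 bases before the start of each gene, in RefSeq promoters of build GRCh38.p14, which held 13372 of the 17559 tested genes. The letters were present in 18 of 26 hypoxia promoters (69.2%) and 8 of 21 glycolysis promoters (38.1%), against 22.2% of all 13372 and 35.0% of mitosis promoters (14 of 40), a list that mostly rose. Genes called at least 2-fold lower held them in 28.6% and genes called at least 2-fold higher in 17.5%. Overlapping matches were each counted, and a palindromic CACGTG gives a match on each strand. A match is a description of letters and not of binding. The list shares take all tested members with a promoter, whatever their change. The hypoxia list was drawn up from genes known as induced by HIF1A or EPAS1. Its share therefore describes the list and not the response here. The windows of ANGPTL4, BHLHE40 and HK2 are shown as examples of called list members that hold the letters, with every match in capitals. Other members that hold them are not shown, and the examples were not ranked by the size of the fall.
ANGPTL4 (chr19:8363905-8364154, plus strand): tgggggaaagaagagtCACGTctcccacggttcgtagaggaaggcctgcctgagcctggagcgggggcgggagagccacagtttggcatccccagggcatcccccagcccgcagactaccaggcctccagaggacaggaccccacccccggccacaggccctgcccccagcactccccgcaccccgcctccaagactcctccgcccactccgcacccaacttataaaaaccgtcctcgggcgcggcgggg
BHLHE40 (chr3:4979187-4979436, plus strand): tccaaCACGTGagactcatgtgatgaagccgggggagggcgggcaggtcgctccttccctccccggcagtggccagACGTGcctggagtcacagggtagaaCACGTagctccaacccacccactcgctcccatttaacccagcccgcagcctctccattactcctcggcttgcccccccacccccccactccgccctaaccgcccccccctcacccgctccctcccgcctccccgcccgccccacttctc
HK2 (chr2:74833877-74834126, plus strand): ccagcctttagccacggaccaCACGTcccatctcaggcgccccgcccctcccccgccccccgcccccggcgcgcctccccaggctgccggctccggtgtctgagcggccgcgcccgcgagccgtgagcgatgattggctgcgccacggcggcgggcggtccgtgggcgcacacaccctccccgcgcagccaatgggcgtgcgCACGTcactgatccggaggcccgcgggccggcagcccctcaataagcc

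ANGPTL4 holds 1 match 234 bases before its start, at the far end of the window. BHLHE40, a transcriptional repressor of the clock, holds 4, between 149 and 245 bases before the start, and fell from 348, 368 and 353 to 98.6, 96.9 and 100 FPKM. HK2 holds 2, at 48 and 229 bases before the start. The number of matches did not order these genes by their change, which was -1.99, -1.90 and -2.61 on the log2 scale.

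A second group of glucose-linked genes moved in both directions. TXNIP, which binds thioredoxin and limits glucose uptake, stood at 4.48, 4.97 and 5.13 FPKM with shNC and 38.8, 36.7 and 37.4 FPKM with shSNHG1#1, a rise of 5.88-fold (SE 0.053 on the log2 scale, adjusted p = 6.5e-11). Its relative ARRDC4 rose 5.35-fold, from 0.56, 0.58 and 0.60 to 3.09, 2.97 and 3.61 FPKM. MLXIPL, the carbohydrate-responsive factor known to activate both, rose 2.41-fold. ARRDC3, of the same arrestin family, fell 3.42-fold, from 56.0, 54.6 and 54.7 to 15.9, 16.5 and 16.6 FPKM. Over the list of 14, these 3 and TXN2 rose and ARRDC3, TXNRD1, KLF10 and PFKFB3 fell, with a median of -0.03 that became 0.13 with totals of features with a symbol. ARRDC4, TXN2 and TXNRD1 were chosen after their values were seen.

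Mitochondrial oxidation genes were mostly higher, by small factors. In the citric acid cycle list, which also holds cytosolic enzymes such as IDH1, 19 of 25 rose and 1 fell. The median log2 fold change was 0.29. IDH1, the cytosolic isocitrate dehydrogenase, stood at 56.3, 54.4 and 55.0 FPKM against 102, 99.2 and 103 FPKM. OGDH and IDH3A, mitochondrial dehydrogenases of the cycle, rose 1.54-fold and 1.56-fold. PC, pyruvate carboxylase, fell 1.34-fold, from 9.73, 10.0 and 10.7 to 8.19, 7.38 and 7.64 FPKM. PC, HADHB, ETFDH, NDUFA9 and COX7C were chosen after their values were seen. In fatty acid oxidation, 12 of 22 genes rose and 2 fell, HADHB and ETFDH (median 0.23), with CPT1A, the carnitine step that admits fatty acids to mitochondria, up 1.52-fold.

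Of 54 nuclear genes for respiratory chain subunits, 24 rose and 2 fell, NDUFA9 and COX7C, with a median of 0.17 and 0.33 when scaled by features with a symbol, where 42 rose. ATP5MC1, a subunit of the membrane ring of ATP synthase, stood at 63.3, 69.7 and 70.4 FPKM against 123, 113 and 119 FPKM. Of 73 mitochondrial ribosomal protein genes 27 rose and 12 fell (median 0.11). The share called in these lists, 48.1% and 53.4%, was close to the 49.9% of all genes, so their call rate as such was that of the background.

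Fatty acid synthesis genes rose more often than they fell. Of 19 genes of fatty acid synthesis 11 rose and 4 fell, ACSL4, SCD, AGPAT2 and LPIN1 (median 0.20), with FASN, fatty acid synthase, at 14.5, 14.5 and 16.2 FPKM against 28.3, 25.4 and 28.0 FPKM, and ACACA, which makes its substrate, up 1.61-fold. Of 25 cholesterol genes 7 rose and 4 fell, a called share of 44.0% against 49.9% of all genes, with a median of 0.05 (0.21, and 15 higher, when scaled by features with a symbol). CYP51A1, HMGCS1, INSIG1 and STARD4 fell, the synthesis enzyme CYP51A1 by 1.24-fold. In serine and one-carbon metabolism 10 of 16 rose and 2 fell, MTHFD1L and MTR (median 0.44). PSAT1, the aminotransferase of serine synthesis, stood at 27.8, 26.4 and 29.6 FPKM against 60.2, 57.7 and 63.0 FPKM. MTHFD1L, a mitochondrial folate enzyme, fell 1.91-fold. ACSL4, SCD, AGPAT2, LPIN1, HMGCS1, INSIG1 and MTR were chosen after their values were seen.

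DNA replication genes rose nearly as a block. Of 45 genes of replication and the G1/S transition, 44 rose, 13 of them at least 2-fold, and 0 fell. Their median log2 fold change was 0.73. CDT1, which licenses origins, was the member that did not pass, with a log2 fold change of 0.03. CCNE1, cyclin E1, which drives entry into S phase, stood at 4.87, 5.56 and 5.36 FPKM with shNC and 19.6, 16.6 and 18.6 FPKM with shSNHG1#1, and rose 3.37-fold. E2F1, the transcription factor that activates many of these genes, rose 1.67-fold. The helicase subunits MCM3, MCM4 and MCM5 rose 1.90-fold, 2.21-fold and 1.71-fold. RRM2, which supplies deoxynucleotides, stood at 12, 11.6 and 11.4 FPKM against 24.9, 25.6 and 26.5 FPKM. PCNA, the sliding clamp, was already abundant and went from 142, 137 and 137 to 212, 207 and 223 FPKM. Each shSNHG1#1 library exceeded each shNC library for the genes given with single values, and 58.1% of all tested genes likewise had groups that did not overlap. CDT1, E2F1, MCM5 and PCNA were chosen after their values were seen.

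The letters TTTNNCGC, a short form of the site of E2F factors, were present in 16 of 39 replication promoters (41.0%), against 8.38% of all 13372 promoters and 10.0% of mitosis promoters, on either strand of the 250 bases before the start. This share likewise describes the list, whatever the change of its members. MCM3 and PCNA are likewise shown only as examples of called list members that hold the letters, with matches in capitals. MCM3 holds a pair of matches at 150 and 174 bases before the start, and PCNA 1 match at 59 bases.
MCM3 (chr6:52284743-52284992, minus strand): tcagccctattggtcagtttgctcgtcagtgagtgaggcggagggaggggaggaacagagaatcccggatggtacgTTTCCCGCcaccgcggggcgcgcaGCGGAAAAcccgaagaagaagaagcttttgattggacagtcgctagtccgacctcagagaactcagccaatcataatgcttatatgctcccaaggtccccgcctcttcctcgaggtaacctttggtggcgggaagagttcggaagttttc
PCNA (chr20:5126623-5126872, minus strand): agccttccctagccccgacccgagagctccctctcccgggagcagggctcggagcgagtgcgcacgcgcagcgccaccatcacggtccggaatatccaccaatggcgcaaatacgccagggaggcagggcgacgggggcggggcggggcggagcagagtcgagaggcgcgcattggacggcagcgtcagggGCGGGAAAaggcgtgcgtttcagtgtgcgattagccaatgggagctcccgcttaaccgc

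Genes of mitosis and G2/M rose by less. Of 47, 45 rose and 1 fell, none by 2-fold, with a median of 0.54. CDK1, the kinase that starts mitosis, stood at 20.3, 19.5 and 21.3 FPKM against 34.1, 33.9 and 35.1 FPKM. AURKA, a spindle kinase, rose 1.64-fold, and BIRC5, survivin, 1.66-fold. The member that fell was ANLN, a scaffold of the cleavage furrow, by 0.15 on the log2 scale, which was lost in limma on FPKM (adjusted p = 0.0672) and turned to 0.00 with totals of features with a symbol. Of 33 Fanconi and homologous recombination genes 23 rose and 3 fell, FANCF, FANCL and RAD54B (median 0.35). UBE2T, the ubiquitin-conjugating enzyme of the Fanconi pathway, stood at 17.5, 19.2 and 17 FPKM against 40.4, 43.0 and 42.4 FPKM, and the exonuclease gene EXO1 rose 1.86-fold. Nucleotide synthesis followed with 12 of 24 higher and PAICS, IMPDH2 and HPRT1 lower (median 0.14), CAD, the enzyme that opens pyrimidine synthesis, by 1.68-fold. ANLN, FANCF, FANCL, RAD54B, PAICS, IMPDH2 and HPRT1 were chosen after their values were seen.

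Most interferon-stimulated genes fell. These genes are switched on by a complex that includes STAT2 and IRF9 after interferon binds its receptor. The threshold was passed downward by 41 of 49 and upward by 3, and the median log2 fold change was -0.72. IRF9, the DNA-binding part of that complex, stood at 52.9, 54.7 and 53.9 FPKM with shNC and 22.4, 20.6 and 20.3 FPKM with shSNHG1#1. GBP1, a guanylate-binding GTPase, fell 2.72-fold. OAS3, which makes the messenger that activates RNase L, stood at 134, 135 and 138 FPKM against 75.7, 75.1 and 77.1 FPKM. The groups were separate for all of these. OASL, IFI44 and DDX60 rose, OASL from 220, 217 and 219 to 269, 257 and 273 FPKM, and the others 1.29-fold and 1.14-fold. These 3 were chosen after their values were seen.

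The core of the interferon-stimulated response element was searched as GAAA, any pair of bases, and GAAA again, on both strands of the same windows. It was present in 22 of 39 interferon promoters (56.4%), against 2.56% of all 13372. The list was drawn up from known interferon-stimulated genes, so the share describes the list and not the response here. OAS3, likewise only an example of a called list member that holds it, is shown with its 2 matches in capitals. They lie at 12 and 143 bases before the start.
OAS3 (chr12:112938224-112938473, plus strand): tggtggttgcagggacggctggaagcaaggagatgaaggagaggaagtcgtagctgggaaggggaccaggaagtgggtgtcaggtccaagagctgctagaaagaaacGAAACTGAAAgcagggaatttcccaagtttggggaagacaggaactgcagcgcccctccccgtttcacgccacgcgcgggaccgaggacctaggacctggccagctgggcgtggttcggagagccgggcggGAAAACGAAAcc

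Antigen presentation and inflammatory genes fell beside them. Of 18 MHC class I presentation genes 14 fell and 0 rose (median -0.63). B2M, the light chain of class I molecules, stood at 1158, 1148 and 1130 FPKM against 842, 797 and 824 FPKM. TAP1, the peptide transporter, fell 1.78-fold, and NLRC5, the activator of class I genes, 1.73-fold. The NF-kB and inflammation list of 33 held 23 that fell and 3 that rose (median -0.45). CXCL8, a neutrophil chemokine, stood at 190, 191 and 185 FPKM against 90.3, 88.4 and 95.1 FPKM, the NF-kB subunit gene RELA fell 1.73-fold, and the cytokine gene LIF fell 2.04-fold. The members that rose, TNFAIP2, VCAM1 and SOD2, did so by at most 1.30-fold. These 3 were chosen after their values were seen. The rise of the chemokine CCL5 given above went against these.

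Immediate early genes, which respond within minutes to growth factors and stress, passed downward in 21 of 34 cases and upward in 4 (median -0.90). DUSP1, a phosphatase of MAP kinases, stood at 217, 218 and 226 FPKM against 55.2, 46.7 and 48.4 FPKM. EGR1, an early growth response factor, stood at 75, 79.1 and 77.0 FPKM against 20, 8.45 and 8.61 FPKM, with replicate 1 above the others, and its log2 fold change of -2.70 became -3.24 without that library. MYC stood at 57.0, 58.8 and 58.2 FPKM against 21.9, 20.4 and 20.4 FPKM. DUSP6, KLF4, BTG2 and SPRY4 rose, BTG2, an antiproliferative gene, the most (1.56-fold). These 4 were chosen after their values were seen.

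Receptor kinase, YAP and clock lists held more members that fell than rose, by a margin that depended on scaling. With totals of features with a symbol, 10 fell and 8 rose in the receptor kinase list (median -0.03). In the YAP list 12 fell and 10 rose there (median -0.08), and in the clock list 8 fell and 5 rose (median -0.16). The counts that follow use TMM factors. In the EGFR and receptor kinase list 12 of 25 fell and 6 rose (median -0.19). ERRFI1, a feedback inhibitor of EGFR, stood at 400, 411 and 403 FPKM against 91.8, 96.4 and 96.2 FPKM, and EGFR itself stood at 67.9, 66.1 and 65.5 against 38.4, 40.5 and 41.0 FPKM. Its ligand gene AREG rose 1.26-fold and was chosen after its values were seen. The 25 YAP and TEAD targets held 14 that fell, and AMOTL1, WWTR1, TEAD3 and ARHGEF17 rose (median -0.24), with F3, tissue factor, down 3.58-fold and the receptor kinase gene AXL down 1.86-fold. Of 20 clock genes 11 fell and 4 rose (median -0.31). NFIL3, a repressor of clock output, fell 2.51-fold and PER2, a core repressor, 2.06-fold, while CRY1, another core repressor, rose 1.86-fold beside ARNTL, HLF and BHLHE41. The members that rose in both lists were chosen after their values were seen.

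In the TGF-beta and BMP list of 36, 16 fell and 8 rose, with a median of -0.10 that turned to 0.06 with totals of features with a symbol. Notch and Wnt lists were mixed, with 6 and 7 higher and 7 and 8 lower of 23 and 26. RBPJ, the DNA-binding factor of Notch signalling, fell 2.06-fold, and its target HEY1 2.34-fold. CCND1, cyclin D1, rose 1.53-fold, while the Wnt inhibitor gene DKK1 fell 1.44-fold. WIF1 of the Wnt list was marked for replicate 1.

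The matrix and mesenchymal list held 4 marked genes, the most of the 46 lists. Of 45 tested, 16 rose and 13 fell, with a median of 0.16, and without replicate 1 the counts were 13 and 11 with a median of 0.01. The marked members were COL1A2, COL3A1, POSTN and TIMP3. COL3A1 stood at 0.05, 0.16 and 0.16 FPKM with shNC and 1.14, 0.18 and 0.05 FPKM with shSNHG1#1 and did not pass the threshold (adjusted p = 0.108). COL1A1, the other chain of type I collagen, was not marked: it stood at 1.23, 1.28 and 1.24 FPKM against 3.50, 2.44 and 2.70 FPKM and rose 2.27-fold, with a log2 fold change of 1.18 and of 1.03 without replicate 1. A pair of abundant members fell. FN1, fibronectin, stood at 710, 722 and 717 FPKM against 311, 319 and 326 FPKM, and VIM, the intermediate filament of mesenchymal cells, at 715, 714 and 724 against 487, 459 and 471 FPKM. PLAU, the urokinase gene and also abundant, rose 1.89-fold. COL1A1, COL3A1 and VIM were chosen after their values were seen.

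Epithelial genes moved both ways. Of 34 junction genes 14 fell and 8 rose, with a median of -0.06 that became 0.10 with totals of features with a symbol. ELF3, an epithelial transcription factor, stood at 160, 158 and 156 FPKM against 81.2, 75.9 and 83.1 FPKM, and DSP, desmoplakin, fell 2.01-fold. CLDN2, a pore-forming claudin, rose from 9.04, 9.42 and 8.72 to 20.9, 19.9 and 20.9 FPKM. Of 14 keratins KRT7, KRT17, KRT81 and KRT86 rose and KRT18, KRT19 and KRT80 fell (2 rose without shSNHG1#1 replicate 1 or without shNC replicate 2), and KRT19 fell 1.66-fold. The called share of the keratins was 50.0%, against 49.9% of all genes. KRT7, KRT18 and KRT86 were chosen after their values were seen.

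Mucins rose in 7 of 16 cases of the secretory list (5 without shSNHG1#1 replicate 1), and MUC1, TFF1 and AGR2 fell (median 0.22). MUC2, the gel-forming mucin of the intestine and the gene with the highest log2 fold change by the naming rule, stood at 0.46, 0.43 and 0.46 FPKM against 4.11, 4.02 and 3.92 FPKM (8.62-fold, SE 0.061 on the log2 scale, adjusted p = 4.2e-11). MUC5AC, an airway and stomach mucin, was far more abundant and rose from 66.4, 70.5 and 74.7 to 153, 145 and 153 FPKM. MUC1, a membrane mucin, fell 2.23-fold and TFF1, a trefoil peptide secreted with mucins, 2.97-fold. MUC2 and MUC5AC lay above shNC in all 3 libraries and were not marked. MUC1 was chosen after its values were seen.

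Most enzymes of the aldehyde list were higher. Of 29 aldehyde dehydrogenase, aldo-keto reductase and related genes 20 rose and ALDH3B1, AKR1C2 and AKR1C3 fell, with a median of 0.37. DHRS2, a dehydrogenase of the short-chain family, stood at 3.66, 3.82 and 3.32 FPKM against 20.2, 20.2 and 19.9 FPKM. AKR1B1, aldose reductase, stood at 368, 368 and 370 FPKM against 964, 871 and 962 FPKM. ALDH3A1 rose 1.80-fold and ALDH1A1 1.52-fold, both from high levels (824 ± 8.83 and 928 ± 13.7 FPKM with shNC; SD, n = 3). AKR1C2, at more than 2000 FPKM with shNC, fell 1.41-fold. Among the leading genes, UGT1A1, which conjugates bilirubin and drugs, rose 3.52-fold, from 3.35, 2.67 and 2.73 to 9.80, 10.9 and 11.1 FPKM; the family shares exons, so its counts may be divided with its neighbours. ALDH3B1 and AKR1C3 were chosen after their values were seen.

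NRF2 targets divided evenly, with 13 of 30 higher and 13 lower (median 0.03). GCLC, the catalytic subunit that starts glutathione synthesis, stood at 150, 152 and 149 FPKM against 54.3, 56.8 and 56.3 FPKM, and NFE2L2, which encodes NRF2, fell 1.81-fold. AKR1B10 rose 1.46-fold. Iron genes fell in 10 of 15 cases (median -0.28) and SLC11A2, SLC40A1, ACO1 and NCOA4 rose, with HMOX1, heme oxygenase, down 1.85-fold and SLC40A1, the iron exporter ferroportin, up 1.95-fold. Metallothionein MT1X stood at 283, 303 and 269 FPKM against 143, 132 and 141 FPKM. Of the 7 tested genes in that list MT1X, MT2A and SLC39A10 fell and SLC30A1, a zinc exporter, rose 1.68-fold. SLC11A2 and NCOA4 were chosen after their values were seen.

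The drug transport list, which covers carriers known to move platinum compounds and other drugs, was mixed. Of 18, 6 rose and ATP7A, ABCC2, ABCC4 and MT2A fell, with a median of 0.05, and 12 rose when scaled by features with a symbol. SLC31A1, the copper transporter CTR1, stood at 4.97, 4.65 and 4.82 FPKM with shNC and 8.49, 8.65 and 8.70 FPKM with shSNHG1#1. ATP7A, a copper exporter, fell from 9.26, 9.19 and 8.97 to 5.94, 6.25 and 6.40 FPKM, while the related ATP7B rose 1.71-fold. The groups did not overlap for these 3 genes, as for 58.1% of all. ABCC2 and ABCC4 were chosen after their values were seen.

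Cell death and p53 lists were mixed as well. Of 32 p53 targets 13 rose and 9 fell (median 0.09; 0.25 and 20 higher when scaled by features with a symbol). PMAIP1, the death protein NOXA, stood at 19.6, 18.4 and 18.5 FPKM against 40.7, 41.3 and 41.5 FPKM, CDKN1A, the cell cycle inhibitor p21, rose 1.52-fold, and GDF15, a stress cytokine, fell 1.92-fold. Of 32 BCL2 and apoptosis genes 11 rose and 8 fell (7 rose without shNC replicate 2 or without shSNHG1#1 replicate 3), with BCL2L11, the death protein BIM, up 1.47-fold and BIRC2, an inhibitor of apoptosis, down 1.52-fold. CDKN1A was chosen after its values were seen.

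Protein folding and stress lists each held genes moving both ways. Of 32 integrated stress and ATF4 targets 13 rose and 12 fell (median 0.04). DDIT3, the stress factor CHOP, stood at 105, 109 and 109 FPKM against 27.0, 22.7 and 28.5 FPKM, and TRIB3, which it induces, fell 2.35-fold, while the cystine transporter SLC7A11 and the asparagine synthetase gene ASNS rose 1.19-fold and 1.26-fold. Of 30 cytosolic heat shock genes 11 rose and 13 fell, with a median of -0.06 that turned to 0.10 with totals of features with a symbol. The inducible members HSPA1A, HSPA1B and DNAJB1 fell 2.75-fold, 3.15-fold and 2.78-fold, and the near-identical pair HSPA1A and HSPA1B may share reads. The co-chaperone STIP1 rose 1.57-fold and the cytosolic chaperone HSP90AA1 1.24-fold. Of 26 endoplasmic reticulum genes 12 fell and 7 rose (median -0.08, and 0.08 with totals of features with a symbol), HERPUD1, of the degradation pathway, by 3.04-fold and CALR, calreticulin, by 1.41-fold, both downward. Of 31 proteasome subunits 15 rose and PSMA1, PSMA2, PSMA4 and PSMC1 fell by at most 0.25 on the log2 scale (median 0.10), and of 35 lysosome and autophagy genes 9 rose and 10 fell (median -0.02, and 0.14 with totals of features with a symbol). The 4 proteasome subunits, SLC7A11, ASNS and HSP90AA1 were chosen after their values were seen.

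Ribosome and RNA processing lists had medians close to 0, with single genes that moved far. Among the 74 genes for cytosolic ribosomal proteins, 30 fell and 1, RPLP0, rose. The called share was 41.9%, against 49.9% of all genes. The median was -0.11, but it turned to 0.05 with totals of features with a symbol, where 3 fell and 19 rose. RPLP0 stood at 91.0, 124 and 135 FPKM against 177, 139 and 192 FPKM, and its adjusted p was 0.0558 when shSNHG1#1 replicate 3 was left out. RPS9 stood at 513, 494 and 520 FPKM against 422, 386 and 409 FPKM. Of 40 ribosome biogenesis factors, the process that small nucleolar RNAs serve, 15 rose and 14 fell (median 0.01), so 72.5% were called against 49.9% of all genes. FBL, the methyltransferase that works with one class of these RNAs, stood at 353, 362 and 358 FPKM against 259, 246 and 261 FPKM. Of 46 spliceosome genes 16 fell and 7 rose, so 50.0% were called, close to the 49.9% of all genes. Their median of -0.05 turned to 0.10 with totals of features with a symbol. CLK1, a kinase of splicing factors, stood out at 68.1, 68.3 and 68.5 FPKM against 18.3, 19.3 and 18.5 FPKM. Of 27 genes of messenger RNA export and decay 11 fell and NXT1, THOC3, THOC5 and XPO1 rose (median -0.08, and 0.07 with totals of features with a symbol). Of 22 tested histone genes 7 rose and HIST1H2BC fell (median 0.33), and 4 rose without shSNHG1#1 replicate 2. The called share of the histone genes, 36.4%, lay below the 49.9% of all genes. RPLP0, NXT1, THOC5 and XPO1 were chosen after their values were seen.

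Genes near SNHG1 on its chromosome included 3 that differed widely between the groups. NXF1, the main export receptor of messenger RNA, stood at 56.2, 58.0 and 55.5 FPKM with shNC and 15.9, 15.3 and 16.1 FPKM with shSNHG1#1, a log2 fold change of -2.40 (SE 0.033, adjusted p = 4.3e-12). WDR74, a ribosome biogenesis factor, stood at 53, 49.4 and 49.6 FPKM against 14.2, 12 and 14.4 FPKM. STX5, a syntaxin of the Golgi, had 0, 1 and 0 counts with shNC and 478, 483 and 405 with shSNHG1#1, a ratio of 1366 (exact 95% interval 245 to 53990, for counting error only). The direction thus differed between neighbours, and of the 23 tested in all 7 rose, NXF1, WDR74 and SLC3A2 fell and 13 did not pass. The called share of the neighbours was 43.5%, against 49.9% of all genes. SLC3A2, an amino acid transporter subunit, fell 1.34-fold, and C11orf98 rose 1.66-fold. The use of strand in the authors' counting is not given, so reads of overlapping genes cannot be told apart. SLC3A2 was chosen after its values were seen.

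Besides STX5, 3 features were present in 1 group and absent in the other (at least 30 counts against at most 3). HIST1H2BC, a histone gene, had 111, 80 and 123 counts with shNC and 0 in each shSNHG1#1 library, at least 104-fold lower when 0 is replaced by a floor of 3 counts for the whole group. LOC105377517, an uncharacterised gene, had 52, 107 and 140 counts against 0, at least 99-fold lower. PLA2G4B, a phospholipase, had 0 counts with shNC and 50, 44 and 33 with shSNHG1#1, at least 42-fold higher. PLA2G4B lost its call in edgeR's test when any shNC library, or shSNHG1#1 replicate 1 or 2, was left out, with adjusted p of 0.0538 to 0.0646. Estimated counts of a gene that overlaps or resembles another can be assigned wholly to 1 of them, and whether that happened here was not tested.

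Counts and FPKM told different stories for a few genes. Among 7225 genes abundant enough to compare, 27 had a log2 ratio between groups that differed by at least 0.5 between the measures. RANBP10, a Ran-binding protein, had 3568 counts with shNC and 6530 with shSNHG1#1, a log2 ratio of 0.87, but its FPKM went from 58.2 to 217, a log2 ratio of 1.90. SPC25, a kinetochore subunit, had a log2 ratio of 0.44 by counts and 1.34 by FPKM. TAF9B, a transcription factor subunit, had -1.34 by counts and -0.63 by FPKM. PCLO, a synaptic scaffold, changed sign, with 0.29 by counts and -0.69 by FPKM, and its call was lost in several leave-one-out fits. NXF1 was also among the 27, with -2.36 by counts and -1.84 by FPKM. FPKM divides by an effective transcript length, which the authors' estimate can change between libraries when the mix of transcripts changes.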

How the data were processed

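The deposited table holds, for each feature and library, an estimated count and a level whose header says only "exp"; from its values it was taken as FPKM made by the authors. The submitters' processing notes list RSEM 1.2.12, HISAT2 2.0.4, DESeq2 1.4.5 and Bowtie2 2.2.5 without saying what each did. Strand use, annotation and genome build were not given in the sources used here. The estimated counts, rounded, went into edgeR 4.0.16 (R 4.3.3): TMM factors, filterByExpr (18767 features kept, 17559 with a symbol), a quasi-likelihood fit by group alone over all 9 libraries, Benjamini-Hochberg adjustment over all features kept, and a threshold of 0.05. Without a symbol were 3846 features. Alternatives used DESeq2 1.42.0, limma 3.58.1 on log2(FPKM + 1), other scalings, a replicate block and leaving out each library. In simulated counts for this comparison (18767 features), 85.1%, 92.5% and 100% of genes changed 1.5-fold, 2-fold and 4-fold were recovered. Of the calls there, 4.64% were unchanged genes. The simulation changed few genes, all well expressed, with as many raised as lowered. Far more genes (49.9%) were called in the data, so these shares need not hold there.

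The naming rule took called genes with a mean log2 CPM (scaled count) of at least 3, groups that did not overlap and no mark for replicate 1: the 12 highest and 12 lowest log2 fold changes. It added up to 4 members of each list by smallest p, genes on in 1 group only, the 10 marked genes with most counts, and 6 features whose count and FPKM disagree most. The text gives part of these. The members, lists and rules were chosen with earlier results of these data known. Replicate pairs of a group differed beyond sampling noise (chi-square per degree of freedom 3.35 to 6.50), so none was merged.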

Additional observations from a re-analysis of the deposited data

Results flagged for a closer look

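Features without a gene symbol lay outside the comparison, and their share of the estimated counts was higher with shSNHG1#1 than in the control libraries. They took 8.5%, 8.8% and 8.2% of counts with shNC (mean 8.5%) and 15.1%, 15.9% and 14.4% with shSNHG1#1 (mean 15.1%). A single feature held most of this share, at 6.87%, 7.09% and 6.57% of counts with shNC and 12.8%, 13.5% and 12.2% with shSNHG1#1, a rise of 1.82-fold (log2 fold change 0.86, SE 0.04, adjusted p = 5.1e-08 in edgeR's quasi-likelihood test). The next feature by count rose 2.13-fold, from 0.517%, 0.545% and 0.498% to 1.14%, 1.21% and 1.09%. No shSNHG1#1 library overlapped shNC for either. What these features are was not analysed here.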

How the results depend on the processing

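The 4500 higher and 4265 lower genes ranged from 3844 to 4060 and from 3959 to 4164 when each library in turn was left out. Samples share replicate numbers across groups, but no pairing by number was seen. Deviations from group means correlated by -0.0361, 0.00446 and 0.0139 between same-numbered libraries and by -0.0522 to 0.0474 between differently numbered ones. Whether same-numbered libraries shared a culture or preparation cannot be told from these values. With a replicate block, 4343 genes were higher and 4178 lower, and among the genes followed SFTPC, SFTPA1, SPARC, LUM and PSMC1 lost their calls (adjusted p = 0.065 to 0.236). The fold of at least 2 left 610 and 447. Scaling by totals of features with a symbol, added after seeing the data, gave 7060 higher and 2681 lower, by its own construction moving every gene upward. Under it members called higher numbered 15 for cholesterol, 42 for the respiratory chain, 43 for mitochondrial ribosomal proteins, 20 for p53 targets, 12 for platinum and drug pumps, 19 for BCL2 and apoptosis, 8 for arrestins, 11 for histones and 12 for the neighbours of SNHG1. Members called lower numbered 3 for cytosolic ribosomal proteins (18 with library totals alone and 19 in limma on FPKM), 6 for lysosome, 9 for junctions, 5 for Wnt, 10 for the spliceosome and 6 for messenger RNA export. Leaving out single libraries gave 7 to 10 higher for BCL2 and apoptosis, 2 to 4 for keratins and 4 to 7 for histones. The hypoxia, glycolysis, replication, mitosis, interferon, class I, NF-kB and immediate early counts stayed within 1.5 times under every alternative run.

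Single genes that turned sign with totals of features with a symbol lay close to 0 there: ANLN 0.00, HADHB 0.02, COX7C 0.02, ACSL4 0.02, SCD 0.04, IMPDH2 0.03, FANCL 0.02, AKR1C3 0.01, PSMA1 0.03, PSMA4 0.00, PSMC1 0.06 and KRT18 0.03. PCLO gave -0.47 in limma on FPKM. Without shSNHG1#1 replicate 1, SFTPC gave -0.50, SFTPA1 -0.18 and CD74 -0.34, and the highest values on leaving out a library, 3.47 for SFTPC and 3.81 for SFTPA1, came without replicate 2. SFTPC and SFTPA1 also lost their calls without any 1 shNC library (edgeR adjusted p = 0.072 to 0.126). Other calls lost without a single library, with the highest adjusted p, were NCOA4 (0.182, shNC replicate 2), KRT7 (0.142, shSNHG1#1 replicate 1), PCLO (0.129, shSNHG1#1 replicate 2), PSMC1 (0.125, shNC replicate 3), TXN2 (0.123, shSNHG1#1 replicate 1), ARHGEF17 (0.112), SLC11A2 (0.0934) and FANCL (0.0773, all 3 shSNHG1#1 replicate 3), KRT86 (0.0685, shNC replicate 2), COX7C (0.0608, shNC replicate 1) and KRT18 (0.0516, shSNHG1#1 replicate 2). The cause was not tested.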
